A study of Mus musculus with 25 samples.

Results

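Regulatory T cells (Treg) were set against conventional T cells (Tconv), both WT and both without stimulation, across all genes measured by RNA-seq. The comparison was formed from the sample labels: 4 libraries of WT Treg and 2 of WT Tconv, 6 of the 25 libraries of the study. All came from spleen and lymph node of C57BL/6 mice, and the labels name no allele in them beyond WT. The ages of the animals, the markers used to sort the cells and the number of animals per library are not given in the labels used here. Beside these, 2 libraries of stimulated WT Treg and 2 of stimulated WT Tconv were used, kept for 3 h with IL-2 and antibodies to CD3 and CD28 at 2 µg/ml. In addition there was 1 library each of WT Treg and WT Tconv titled as stimulated and described as the controls without deletion of a set of cells given TAT-Cre, a cell-permeable recombinase.

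Treg are CD4 T cells that restrain other immune cells and depend on the transcription factor Foxp3. They survive on IL-2, which they bind through CD25, the product of Il2ra, and make little of themselves. They act through inhibitory receptors such as CTLA-4, through TGF-beta held at the cell surface, through cytokines such as IL-10 and through consumption of IL-2. Tconv are the remaining CD4 T cells, for the most part naive in an unchallenged mouse, and naive cells are kept quiescent by factors such as TCF-1 and KLF proteins and by IL-7. The NF-kB subunits p65 (Rela) and c-Rel (Rel), downstream of the T cell receptor and of TNF-family receptors, take part in the making and upkeep of Treg.

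Values are FPKM, fragments per kilobase of transcript per M (mega) mapped fragments, so levels can be set against each other between genes. They are given for WT Treg replicates 1, 2, 3 and 4 and then for WT Tconv replicates 1 and 2, in that order. Differences are of log2(FPKM + 1), WT Treg minus WT Tconv, ± SE from a limma fit. A gene is said to be called, or to be higher or lower, where the p adjusted over all 11533 genes tested was under 0.05. By their numbers in the labels, WT Treg replicate 3 and WT Tconv replicate 1 belong to libraries 10 to 16, and WT Treg replicate 4 and WT Tconv replicate 2 to libraries 21 to 30. WT Treg replicates 1 and 2 belong to libraries 1 to 2 and 6 to 7, which hold no Tconv. Nothing in the labels names these runs as batches. Where the mean of the differences within the 2 pairs lay over 1.5-fold from the pooled difference of a gene whose values are given, both are given beside it as pairs, that of Treg replicate 3 before that of Treg replicate 4. The genes Areg, Aurkb, Batf, Bhlhe40, Birc5, Ccr2, Ccr3, Ccr7, Cd226, Cdk1, Fas, Foxo1, Gata3, Hspd1, Id2, Il17ra, Irf4, Itgav, Klf2, Mir682, Ndfip2, Nfil3, Plagl1, Pparg, Prdm1, Rora, Runx2, S1pr1, Slamf6, Tnfrsf18 and Epcam fall outside the naming rule, so each was chosen after its values were seen.

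Implied depth was 18.3 to 41.1 M fragments in WT Treg and 18.0 and 50.6 M in WT Tconv. WT Treg replicate 1 stood apart: its median absolute log2 distance from the mean of the other WT Treg libraries was 0.486, with 2044 genes at least 2-fold away, against 0.247 to 0.288 and 328 to 719 genes for the other 3 libraries. It was the highest of the 4 in 6239 of the 11533 genes. It also had the highest sums of most marker lists of other cell types. B cell markers summed to 81.0, 14.3, 6.15 and 6.80 FPKM in WT Treg, against 3.05 and 4.08 in WT Tconv. They were highest in WT Treg replicate 1 for 10 of 10 genes. MHC class II genes summed to 386, 141, 118 and 137 FPKM in WT Treg, against 86.5 and 67.1 in WT Tconv. Myeloid markers summed to 223, 103, 61.4 and 89.1 FPKM in WT Treg, against 65.4 in each WT Tconv library. Erythroid and platelet markers summed to 191, 634, 6.88 and 8.55 FPKM in WT Treg, against 4.69 and 8.60 in WT Tconv. NK and CD8 T cell markers summed to 61.5, 46.6, 13 and 18.8 FPKM in WT Treg, against 44.6 and 33.6 in WT Tconv. Of these 5 lists, with 10, 7, 15, 6 and 10 tested genes, 1 gene was higher in WT Treg, Cd74 of the MHC class II list, and 3 were lower, Klrk1, Klrd1 and Eomes of the NK and CD8 T cell list, all chosen after their values were seen. In the stromal and epithelial list 7 of 10 genes stayed under the level for testing, and of the other 3 Epcam was higher in WT Treg. In the plasma cell list Prdm1, which Treg also express, was higher, 1 of 5. The part of these cells in the results was not tested. In WT Tconv replicate 2 the microRNA entry Mir682 was listed at 297653 of a summed 713728 FPKM, and it is not read further here.

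**Figure D1:**
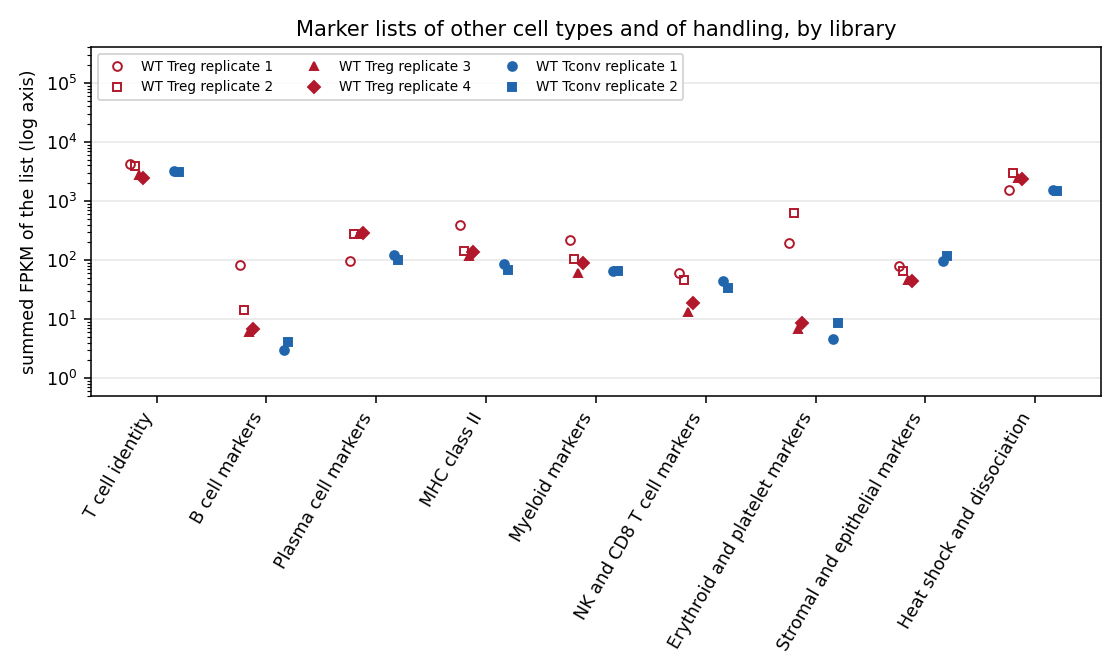
Summed FPKM (log axis) of 9 marker lists in each library, WT Treg replicates 1 to 4 in red to the left and WT Tconv replicates 1 and 2 in blue to the right. B cell and MHC class II sums are highest in WT Treg replicate 1 (81.0 and 386 FPKM), and the erythroid and platelet sum in WT Treg replicate 2 (634 FPKM).

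Heat shock genes, which also move with handling, summed to 1528, 3000.1, 2418 and 2387 FPKM in WT Treg, against 1554 and 1471 in WT Tconv, and 1 of 10, Hspd1, was higher. T cell identity genes summed to 4197, 3871, 2737 and 2496 FPKM in WT Treg, against 3202 and 3085 in WT Tconv. Xist, the RNA that coats the inactive X chromosome of females, was at 131, 72.1, 59.3 and 0.00751 FPKM in WT Treg, against 47.4 and 0.00947 in WT Tconv (1.98 ± 2.42, pairs 0.32 and -0.0028, adjusted p = 0.65). WT Treg replicate 4 and WT Tconv replicate 2 were near 0, so the 2 libraries of each pair match in Xist. Xist and the Y-linked genes of the sex-linked list summed to 131, 72.1, 59.3 and 175 FPKM in WT Treg, against 47.4 and 129 in WT Tconv. WT Treg replicate 4 and WT Tconv replicate 2 thus held Y-linked RNA, while in the other libraries Xist made up the sum to the digits given. The cell types were not balanced for sex. Nothing in the labels says that the replicates came from separate animals. By these genes WT Treg replicate 4 and WT Tconv replicate 2 came from other animals than the remaining libraries, and for those it is not known. The p-values thus speak only of the spread between libraries, which may in part be technical. The fit took that spread from 21 libraries in 10 groups, stimulated and knockout libraries among them.

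The difference between the cell types was broad. Of the 11533 genes, 811 were higher in WT Treg (7.03%) and 638 lower (5.53%). Each count of list members below is to be read beside these shares, save where a block was used. At an unadjusted p under 0.05 there were 3128. The rises were the larger: 551 of them were at least 2-fold and 45 at least 8-fold, against 235 and 10 of the falls, and the median log2 difference was 1.23 for called rises and -0.87 for called falls. All 4 WT Treg libraries lay above both WT Tconv libraries in 2158 genes (18.7%) and below both in 1932 (16.8%). Among the called genes 808 of the 811 and all 638 had no overlap between the groups, which fixes their direction in both pairs. All 811 and all 638 kept their direction there, but the pairs reuse libraries of the contrast and are no separate support. With the run as a block, 2247 genes were called higher (19.5%) and 3040 lower (26.4%), and 810 of the 811 and 638 of the 638 were among them. The block used these libraries as well. The counts rest on both Tconv libraries: without replicate 1 of WT Tconv 255 genes were called higher and 153 lower, and without replicate 2 these were 226 and 136. Without WT Treg replicate 1 there were 1014 and 1297. With the spread taken from the 10 WT libraries at rest and after stimulation alone there were 645 and 491.

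**Figure D2:**
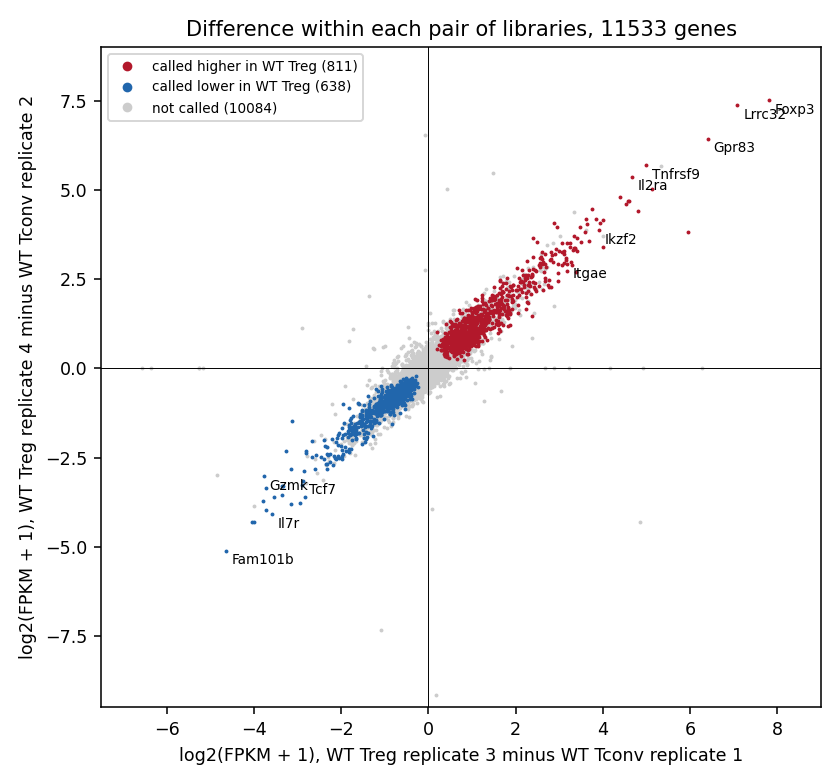
Difference of log2(FPKM + 1) for each of 11533 genes, WT Treg replicate 3 minus WT Tconv replicate 1 on the horizontal axis and WT Treg replicate 4 minus WT Tconv replicate 2 on the vertical axis. Red points are the 811 genes called higher in WT Treg, blue points the 638 called lower, and grey points the rest. All called genes lie to the upper right or the lower left of the origin, with Foxp3 and Lrrc32 far to the upper right and Fam101b to the lower left, and Mir682 falls below the drawn range.

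The genes known to mark Treg were higher nearly throughout. Of 35 genes of the Treg core list 32 were higher in WT Treg and 1 lower, with a median log2 difference of 3.03, against 0.00 over all genes tested. The list was chosen with earlier results of these data known, and its direction is what marks the cell type. Foxp3 (chrX:7156802-7172369, mm9) stood at 129, 210.5, 344 and 351 FPKM in WT Treg, against 0.542 and 0.927 FPKM in WT Tconv. No WT Tconv library reached 1 FPKM, and WT Treg replicate 1 had the lowest Treg value. The difference was the largest among the named genes, 7.12 ± 0.43 on the log2 scale (adjusted p = 5.7e-07), and the pairs gave 7.81 and 7.51. The gene lower in WT Treg was Gpr97, an adhesion receptor, at 0.337, 0.0249, 0.142 and 0.215 FPKM in WT Treg, against 1.08 and 0.692 in WT Tconv (-0.68 ± 0.16, adjusted p = 0.015), named after its value was seen. Plagl1 and Areg were not called.

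The evenness of the marker genes over the 4 WT Treg libraries differed widely. Ikzf2 (chr1:69577784-69732534), which encodes the zinc finger factor Helios, was at 122, 121, 112 and 119 FPKM in WT Treg, against 6.59 and 7.15 FPKM in WT Tconv. Its 4 Treg values lay closer together than those of Foxp3, and the difference was 3.93 ± 0.17 (adjusted p = 1.9e-08). Ikzf4, which encodes Eos, a partner of Foxp3, was at 46.2, 71.6, 93.5 and 118 FPKM in WT Treg, against 13.2 and 22.6 in WT Tconv, with a log2 difference of 2.11 ± 0.39 (adjusted p = 0.0033). The other 3 members of the Ikaros family were not called. Ikzf1 was at 125, 105, 86.5 and 102 FPKM in WT Treg, against 123 and 109 in WT Tconv. Ikzf3 was at 91, 75, 44.1 and 42.4 FPKM in WT Treg, against 49.6 and 70.5 in WT Tconv. Ikzf5 was at 17.7, 22.7, 20.6 and 19 FPKM in WT Treg, against 19.1 and 17.3 in WT Tconv. The groups overlapped in all 3.

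Some markers were higher in WT Treg replicates 1 and 2 than in replicates 3 and 4, and others the reverse. Itgae, the integrin chain CD103 that binds E-cadherin, was at 70.3, 65.5, 17.3 and 15.3 FPKM in WT Treg, against 1.04 and 1.15 in WT Tconv (4.04 ± 0.58, pairs 3.17 and 2.92, adjusted p = 4.9e-04). Folr4, the folate receptor-like surface protein of Treg, was at 517, 400.4, 213 and 212 FPKM in WT Treg, against 26.5 and 26.7 in WT Tconv. Klrg1, an inhibitory lectin-like receptor of terminally differentiated cells, was at 41.9, 29.5, 13.8 and 10.9 FPKM in WT Treg, against 0.439 and 0.167 in WT Tconv (4.08 ± 0.65, pairs 3.36 and 3.35, adjusted p = 0.0010). Coro2a, a coronin that binds actin, and Rln3, which encodes a relaxin-family peptide, had the same order: Coro2a was at 77.8, 72.3, 29.8 and 33.3 FPKM in WT Treg, against 1.75 and 1.2 in WT Tconv (4.33 ± 0.39, pairs 3.48 and 3.96, adjusted p = 1.2e-05). Rln3 was at 43.9, 38.5, 4.98 and 8.03 FPKM in WT Treg, against 0.212 and 0.334 in WT Tconv (3.79 ± 0.83, pairs 2.30 and 2.76, adjusted p = 0.0089). Nrp1, the semaphorin and VEGF receptor neuropilin, was at 76.6, 68.3, 23.8 and 17.6 FPKM in WT Treg, against 9.15 and 6.79 in WT Tconv (2.16 ± 0.56, pairs 1.29 and 1.25, adjusted p = 0.022). In the opposite order, Gpr83, a receptor used to mark Treg, was at 40.8, 44.6, 116 and 137 FPKM in WT Treg, against 0.384 and 0.591 in WT Tconv (5.65 ± 0.57, pairs 6.40 and 6.44, adjusted p = 2.6e-05). Swap70, a guanine exchange factor for Rac, was at 25.9, 47.5, 99.1 and 115 FPKM in WT Treg, against 3.36 and 3.73 in WT Tconv (3.78 ± 0.58, pairs 4.52 and 4.61, adjusted p = 8.1e-04). All of these were called, and in each the lowest Treg value stood above the highest Tconv value. Of the semaphorin and neuropilin list 3 of 13 genes were higher, Nrp1, Plxnc1 and Sema4b, and none lower, where 7.03% and 5.53% of all genes were. With 1 WT Treg library left out 1 to 4 were higher. The count also rests on both WT Tconv libraries, as the counts over all genes do.

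**Figure D3:**
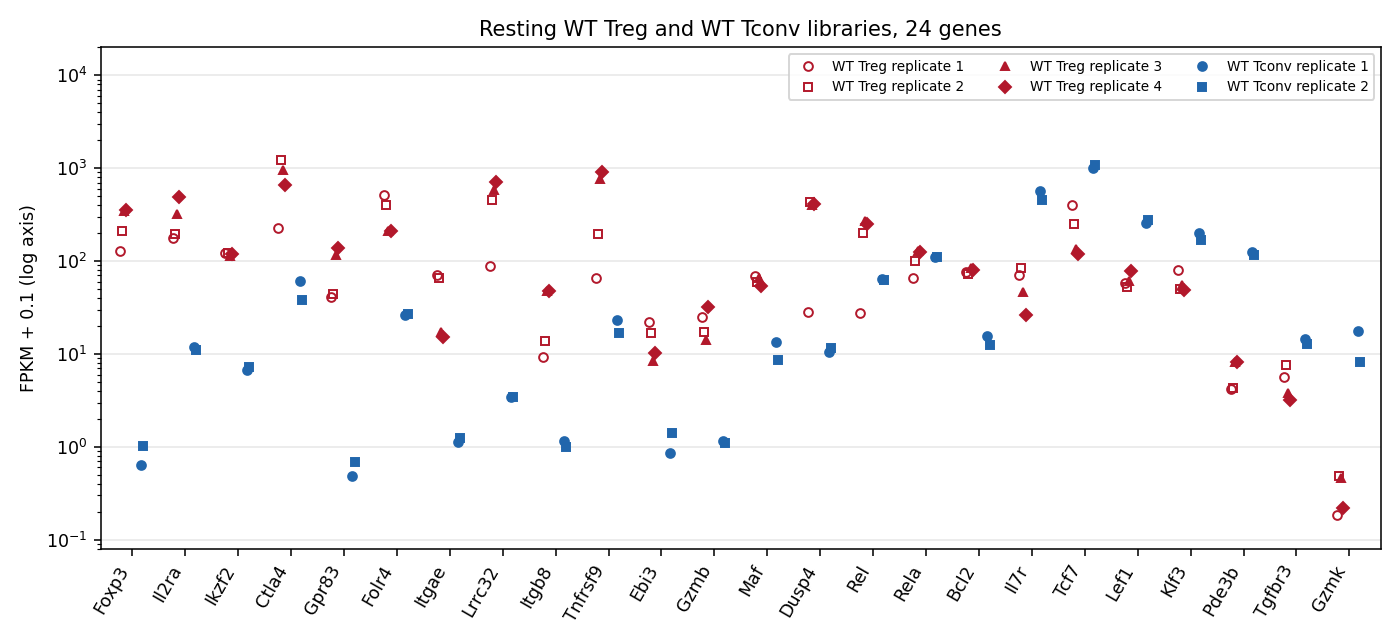
FPKM plus 0.1 (log axis) of 24 genes in each library, WT Treg replicates 1 to 4 in red to the left and WT Tconv replicates 1 and 2 in blue to the right of each gene. Ikzf2 is even over the Treg libraries at 112 to 122 FPKM, while Dusp4 and Rel are low in WT Treg replicate 1 (27.9 and 27.5 FPKM) and Itgae is higher in replicates 1 and 2 (70.3 and 65.5 FPKM) than in replicates 3 and 4.

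Lrrc32 and Itgb8, which present and release TGF-beta, were higher in WT Treg, and its receptor chains split. Lrrc32 (chr7:105642732-105650340) encodes GARP, which holds latent TGF-beta at the cell surface, and was at 87.8, 455, 589 and 713 FPKM in WT Treg, against 3.36 and 3.31 FPKM in WT Tconv. Replicate 1 of WT Treg was the lowest of the 4 and still far above both Tconv libraries (6.38 ± 0.72, pairs 7.08 and 7.37, adjusted p = 7.2e-05). Itgb8, whose integrin chain pairs with the Itgav chain to release the active cytokine, was at 9.15, 13.8, 47.8 and 47.4 FPKM in WT Treg, against 1.05 and 0.888 in WT Tconv (3.63 ± 0.60, pairs 4.57 and 4.68, adjusted p = 0.0014). Tgfbr1 was higher, at 38.9, 62.5, 44.1 and 49.7 FPKM in WT Treg, against 18.4 and 19.4 in WT Tconv (1.30 ± 0.20, adjusted p = 8.0e-04). Tgfbr2, the chain that binds the ligand, was lower, at 82.6, 85, 58.9 and 45.5 FPKM in WT Treg, against 202 and 167 in WT Tconv (-1.46 ± 0.32, adjusted p = 0.0094). Tgfbr3, an accessory receptor, was at 5.61, 7.44, 3.73 and 3.08 FPKM in WT Treg, against 14.3 and 12.8 in WT Tconv. Smad4, the common signal mediator, was at 46.8, 48.2, 55.4 and 49.5 FPKM in WT Treg, against 91.5 and 81.9 in WT Tconv. Both were lower in WT Treg. In all, 4 of the 15 tested genes of the list were higher and 3 lower, and 5 more of its symbols were not tested.

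Several genes for secreted effectors of Treg were higher. Ebi3, a chain shared by the cytokines IL-35 and IL-27, was at 22.2, 16.8, 8.39 and 10.1 FPKM in WT Treg, against 0.759 and 1.3 in WT Tconv (2.84 ± 0.33, adjusted p = 8.2e-05). Il10 was at 5.3, 63, 44.1 and 27.1 FPKM in WT Treg, against 5.58 and 2.4 in WT Tconv, and WT Treg replicate 1 overlapped with Tconv (2.5 ± 0.70, adjusted p = 0.031). Gzmb, a protease that kills target cells, was at 24.9, 17.3, 14.1 and 32.3 FPKM in WT Treg, against 1.07 and 0.991 in WT Tconv. Penk, the enkephalin precursor, was at 51, 88.8, 130.0 and 135 FPKM in WT Treg, against 9.24 and 10.4 in WT Tconv. Both were called and their groups did not overlap. Of the 22 tested cytokine genes 4 were higher (Il10, Ebi3, Csf1 and Mif) and 2 lower (Il22 and Clcf1), where 7.03% and 5.53% of all genes were. Il22, which acts on epithelium, was at 0, 0.258, 0.423 and 0.536 FPKM in WT Treg, against 4.03 and 4.07 in WT Tconv (-1.97 ± 0.60, adjusted p = 0.047), close to the threshold and at a low level. None of the 10 tested chemokine ligand genes was called in the limma fit. A block by run called 2 of the 10 higher and 2 lower, where 19.5% and 26.4% of all genes were. The higher were Ccl20 (2.60 ± 0.30, adjusted p = 4.5e-05) and Cxcl10 (0.92 ± 0.23, adjusted p = 0.0062). The lower were Ccl5 (-1.79 ± 0.55, adjusted p = 0.019) and Xcl1 (-3.85 ± 0.90, adjusted p = 0.0048). Ccl20, the ligand of CCR6, was at 0.51, 4.13, 11.2 and 7.55 FPKM in WT Treg, against 1.06 and 0.291 in WT Tconv (1.71 ± 0.66, pairs 2.57 and 2.73, adjusted p = 0.11). Xcl1, which attracts cross-presenting dendritic cells, was at 4.46, 4.75, 0.181 and 1.2 FPKM in WT Treg, against 32.9 and 16.5 in WT Tconv (-3.02 ± 0.98, pairs -4.84 and -2.99, adjusted p = 0.059).

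Of 20 tested genes of adenosine and cyclic AMP 5 were higher and 2 lower, with a median log2 difference of -0.15. Entpd1, the ectoenzyme CD39 that degrades ATP, was at 13.6, 10.8, 11.1 and 9.68 FPKM in WT Treg, against 1.36 and 0.792 in WT Tconv (2.57 ± 0.22, adjusted p = 5.8e-06). The prostaglandin E receptors Ptger2 and Ptger4 were higher as well: Ptger4 was at 52.4, 79.9, 74.6 and 73.2 FPKM in WT Treg, against 24.1 and 20.4 in WT Tconv (1.60 ± 0.18, adjusted p = 8.5e-05). Adora2a, the adenosine receptor that raises cyclic AMP, was at 27.3, 96.8, 96.6 and 84.8 FPKM in WT Treg, against 24.7 and 19.4 in WT Tconv, and WT Treg replicate 1 lay just above the Tconv libraries. Pde3b, which breaks down cyclic AMP and is a known target of repression by Foxp3, was at 4.13, 4.16, 8.08 and 8.02 FPKM in WT Treg, against 124 and 118 FPKM in WT Tconv. All 4 Treg values were far below both Tconv values, and the difference was -4.16 ± 0.28 (adjusted p = 1.0e-06). Vipr1, a receptor for vasoactive intestinal peptide that also raises cyclic AMP, was lower too, at 6.62, 3.07, 3.03 and 2.28 FPKM in WT Treg, against 63.6 and 64.1 in WT Tconv (-3.85 ± 0.41, adjusted p = 4.1e-05).

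Il2ra and Il2rb, chains of the IL-2 receptor, were higher and Il7r lower in WT Treg. Il2ra (chr2:11564419-11614821) was at 177, 197, 322 and 491 FPKM in WT Treg, against 11.7 and 10.9 FPKM in WT Tconv (4.48 ± 0.43, adjusted p = 1.9e-05). Il2rb, the second chain of the IL-2 receptor, was at 361, 651, 768 and 784 FPKM in WT Treg, against 137 and 66.4 in WT Tconv (2.67 ± 0.33, adjusted p = 1.3e-04). Il7r (chr15:9435914-9459631), the IL-7 receptor chain, was at 70.2, 83.9, 46.5 and 25.9 FPKM in WT Treg, against 570.1 and 458 FPKM in WT Tconv (-3.28 ± 0.45, adjusted p = 3.7e-04). In WT Tconv, Il7r thus stood far above Il2ra, and in every WT Treg library Il2ra stood above Il7r. The receptor for IL-33, Il1rl1, which marks tissue Treg, was at 21.7, 29.4, 88.3 and 58.9 FPKM in WT Treg, against 2.7 and 1.34 in WT Tconv (3.90 ± 0.74, pairs 4.59 and 4.68, adjusted p = 0.0037). The decoy receptor Il1r2, which binds IL-1 without a signal, was at 28.6, 63, 46.4 and 52.6 FPKM in WT Treg, against 1.98 and 4.11 in WT Tconv. Il10ra was at 40.6, 79, 44.5 and 43.7 FPKM in WT Treg, against 11.6 and 8.89 in WT Tconv. All 3 were higher, as were 10 of the 26 receptors of the list, while Il7r and Il17ra were lower.

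Of the feedback inhibitors of cytokine signalling Socs1, Socs2, Socs3 and Cish were higher in WT Treg. Socs2 was at 28.5, 38.7, 61.9 and 75.8 FPKM in WT Treg, against 3.68 and 2.5 in WT Tconv (3.59 ± 0.34, adjusted p = 1.8e-05). Cish, induced by STAT5, was at 107, 437, 495 and 532 FPKM in WT Treg, against 40.2 and 36.7 in WT Tconv, with replicate 1 low (3.08 ± 0.56, pairs 3.59 and 3.82, adjusted p = 0.0029). Socs1 was at 86.7, 188, 245 and 244 FPKM in WT Treg, against 25 and 20.5 in WT Tconv (2.91 ± 0.43, adjusted p = 6.2e-04). The kinases that the receptors use split: Jak3, which pairs with the common gamma chain, was at 99.7, 77.6, 37.7 and 36.1 FPKM in WT Treg, against 19.3 and 22.6 in WT Tconv (1.41 ± 0.38, pairs 0.93 and 0.65, adjusted p = 0.028). Jak1 was at 226, 207, 225 and 193 FPKM in WT Treg, against 356 and 335 in WT Tconv. Jak3 was thus higher and Jak1 lower. None of the 7 Stat genes was called. The whole list gave 5 higher and 1 lower of 18, where 7.03% and 5.53% of all genes were.

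Costimulatory and checkpoint receptors were higher in 15 of 22 tested genes and lower in none, with a median log2 difference of 1.48. Ctla4, which competes with CD28 for its ligands, was at 229, 1235, 946 and 652 FPKM in WT Treg, against 61 and 38 FPKM in WT Tconv (3.72 ± 0.62, adjusted p = 0.0016). Tigit, another inhibitory receptor, was at 86.9, 223, 291 and 203 FPKM in WT Treg, against 53 and 37.9 in WT Tconv (2.01 ± 0.36, adjusted p = 0.0027). In both, WT Treg replicate 1 was the lowest of the 4. Btla, also inhibitory, was more even, at 76.9, 61.3, 86.5 and 74.5 FPKM in WT Treg, against 28.6 and 23.8 in WT Tconv (1.48 ± 0.20, adjusted p = 2.7e-04). Cd86, a ligand of CTLA-4 known mainly from antigen-presenting cells, was at 20.8, 19.9, 29.2 and 31.9 FPKM in WT Treg, against 2.31 and 3.94 in WT Tconv (2.68 ± 0.32, adjusted p = 1.1e-04). The pairs gave 3.19 and 2.74 for Cd86, and the part of antigen-presenting cells in its level was not tested. Cd83 and Cd200r1 were also higher. Cd83 was at 64.4, 307, 194 and 276 FPKM in WT Treg, against 12.6 and 14.3 in WT Tconv. Cd200r1 was at 21, 11.4, 17.2 and 12.3 FPKM in WT Treg, against 4.07 and 3.38 in WT Tconv.

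Receptors of the TNF family, which feed into NF-kB, split into 6 higher and 2 lower of 16 tested. Tnfrsf4 (OX40) was at 258, 972, 1248 and 1318 FPKM in WT Treg, against 118 and 133 FPKM in WT Tconv (2.67 ± 0.57, pairs 3.40 and 3.30, adjusted p = 0.0073). Tnfrsf9 (4-1BB) was at 64.9, 194, 769 and 918 FPKM in WT Treg, against 23.1 and 16.7 in WT Tconv. Its Treg values spread over more than 10-fold, lowest in replicate 1 and highest in replicate 4, and the pairs gave 5.0 and 5.70, above the pooled 3.90 ± 0.97 (adjusted p = 0.018). Tnfrsf1b (TNF receptor 2) was at 94.8, 223, 227 and 199.9 FPKM in WT Treg, against 51.8 and 36.7 in WT Tconv. Tnfrsf8 (CD30) was at 8.03, 7.79, 2.93 and 4.36 FPKM in WT Treg, against 0.0411 and 0.156 in WT Tconv. Both were called, as were Tnfrsf18 (GITR) and Fas. Tnfrsf14 (HVEM), the ligand of BTLA, and Tnfrsf26, a member of the family in mice, were lower: Tnfrsf14 was at 45.7, 27, 17.8 and 16.1 FPKM in WT Treg, against 73 and 65.2 in WT Tconv. Tnfrsf26 was at 19.4, 26.8, 18.3 and 18 FPKM in WT Treg, against 65.6 and 66.7 in WT Tconv. Of the 13 tested ligands of the family Lta and Tnfsf10 were higher, and none was lower.

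**Figure D4:**
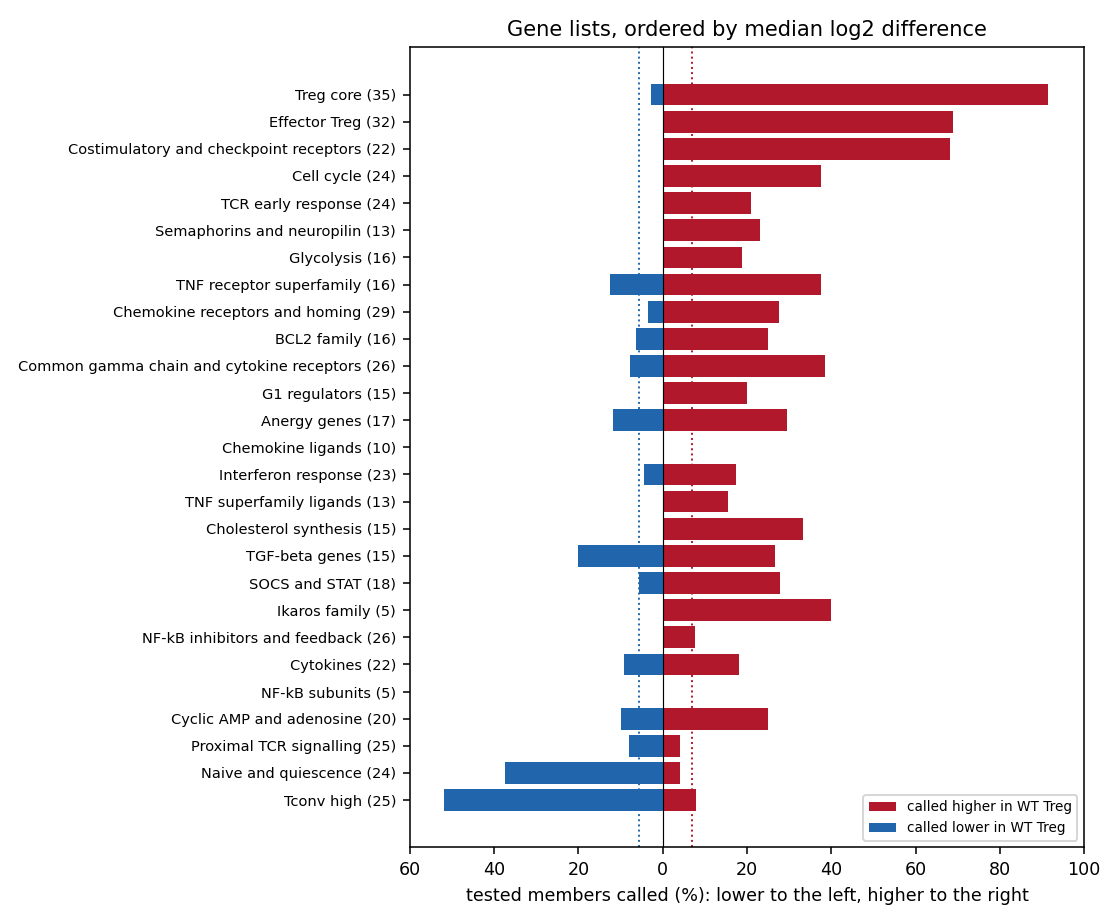
Share of the tested members (number in brackets) of 27 gene lists called higher (red, to the right) or lower (blue, to the left) in WT Treg, lists ordered by their median log2 difference from the highest at the top. Dotted lines give the share over all genes tested, 7.03% higher and 5.53% lower. The Treg core, effector Treg and costimulatory lists have the largest shares called higher, and the Tconv and naive lists the largest shares called lower.

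Of 29 chemokine receptor and homing genes 8 were higher in WT Treg (Ccr2, Ccr3, Ccr4, Ccr6, Ccr8, Cxcr5, Gpr15 and Itgae) and 1, S1pr1, which lets T cells leave lymph nodes, was lower. Ccr6, the receptor for CCL20 at mucosal surfaces, was at 32.7, 22.6, 24.6 and 28.7 FPKM in WT Treg, against 1.53 and 1.27 in WT Tconv (3.54 ± 0.36, adjusted p = 2.5e-05). Ccr8 was at 24.9, 188, 112 and 104 FPKM in WT Treg, against 10.2 and 9.05 in WT Tconv, with replicate 1 of WT Treg far below the rest (3.04 ± 0.70, adjusted p = 0.012). Ccr4, known for guiding cells to skin, was at 41.1, 63.5, 78.1 and 82.7 FPKM in WT Treg, against 12.1 and 7.75 in WT Tconv (2.61 ± 0.37, adjusted p = 4.3e-04). Gpr15, which guides cells to the large intestine, was at 29.5, 11, 13.2 and 7.31 FPKM in WT Treg, against 1.92 and 1.32 in WT Tconv. Cxcr5, which guides cells to B cell follicles, was at 28.7, 13.2, 11.2 and 11.4 FPKM in WT Treg, against 5.08 and 4.03 in WT Tconv. For both, WT Treg replicate 1, which had the highest sum of B cell markers, was the highest. It was the highest WT Treg library in 6239 of all 11533 genes, and the part of B cells in these values was not tested. The pairs gave 2.28 and 1.84 for Gpr15 and 1.0 and 1.30 for Cxcr5.

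Promoter sequence was described for the called genes, since AP-1, NF-kB, TCF-1 and Foxp3 belong to the transcription factors of these cells. RefSeq windows (GRCm38.p6) of 250 bases before to 50 after a start were held for 9240 of the 11533 genes, and 5 motifs were searched on both strands. The AP-1 letters TGANTCA were in a window of 9.59% of 636 genes called higher and 4.18% of 526 called lower, against 5.97% of all 9240. The NF-kB letters GGGNNTTTC were in 6.13% of those called higher and 3.99% of those called lower, against 5.25% of all. The forkhead letters TGTTTAC were in 3.62% of those called higher and 4.56% of those called lower, against 3.25% of all. The TCF/LEF letters CTTTGAT were in 2.04% of those called higher and 2.66% of those called lower, against 2.85% of all. The ETS letters CCGGAAGT were in 6.13% of those called higher and 6.46% of those called lower, against 9.75% of all. The AP-1 letters read the same on both strands, and AP-1 and TCF/LEF matches can share bases. Genes called higher had 1.29 windows and genes called lower 1.33 on average, against 1.26 over all, so the shares are not per window. They are descriptions with no test. The promoters of 4 receptor genes are printed to show the letters in place. They were chosen after their values were seen, because they were called higher and hold the AP-1 letters before the start. The 200 bases before the start are given on the gene's strand, with AP-1 and NF-kB matches in capitals. The coordinates are those of the printed bases on GRCm38.p6. Tnfrsf9 has 2 RefSeq windows. The one at chr4:150919905-150920204, which is not printed, holds TCF/LEF letters and neither AP-1 nor NF-kB letters. The printed bases, at chr4:150927799-150927998, plus strand, hold AP-1 letters 15 and NF-kB letters 43 bases before the other start. Tnfrsf8 lies at chr4:145315165-145315364, minus strand, with AP-1 letters 132 bases before the start. Ccr4 lies at chr9:114496545-114496744, minus strand, with AP-1 letters 143 bases before the start. Gpr15 lies at chr16:58718873-58719072, minus strand, with AP-1 letters 199 bases before the start.
Tnfrsf9: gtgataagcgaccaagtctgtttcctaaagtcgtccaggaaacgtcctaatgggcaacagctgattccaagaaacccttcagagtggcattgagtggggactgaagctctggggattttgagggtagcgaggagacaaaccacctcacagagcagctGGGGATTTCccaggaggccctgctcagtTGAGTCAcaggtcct
Tnfrsf8: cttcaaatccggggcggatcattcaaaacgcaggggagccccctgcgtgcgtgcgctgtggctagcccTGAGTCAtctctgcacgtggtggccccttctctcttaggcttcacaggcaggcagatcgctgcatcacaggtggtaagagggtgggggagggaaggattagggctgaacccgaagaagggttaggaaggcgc
Ccr4: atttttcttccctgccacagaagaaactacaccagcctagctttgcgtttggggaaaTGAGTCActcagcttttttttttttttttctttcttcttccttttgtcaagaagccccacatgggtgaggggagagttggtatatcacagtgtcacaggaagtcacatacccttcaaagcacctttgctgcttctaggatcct
Gpr15: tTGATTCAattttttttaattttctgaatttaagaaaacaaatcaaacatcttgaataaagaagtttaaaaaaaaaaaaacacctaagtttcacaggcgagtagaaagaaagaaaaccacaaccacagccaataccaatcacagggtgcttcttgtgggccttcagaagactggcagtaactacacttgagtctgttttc

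Genes of effector Treg were higher in part, and some genes of naive cells lower. The effector Treg list gave 22 of 32 genes higher and none lower, with a median log2 difference of 2.00, and 11 of its genes, Il10, Ebi3, Gzmb, Penk and Itgae among them, are on the Treg core list too. Maf, a factor that drives Il10, was at 69.7, 58.7, 65.7 and 53.4 FPKM in WT Treg, against 13.5 and 8.45 in WT Tconv, with little spread in WT Treg (2.42 ± 0.19, adjusted p = 3.1e-06). Prdm1, Batf, Gata3, Pparg and Runx2 were higher as well, while Irf4, Id2, Rora, Nfil3, Bhlhe40 and Tbx21 were not called. In the naive and quiescence list 9 of 24 genes were lower and 1 was higher, and the list had a median log2 difference of -0.77. Tcf7 (chr11:52066106-52095752), which encodes TCF-1, was at 399, 252, 136 and 120.4 FPKM in WT Treg, against 1006 and 1076 FPKM in WT Tconv (-2.36 ± 0.48, pairs -2.88 and -3.15, adjusted p = 0.0061). Its partner Lef1 was at 58, 52.7, 61.3 and 77.3 FPKM in WT Treg, against 258 and 274 in WT Tconv, more even than Tcf7 (-2.09 ± 0.20, adjusted p = 1.6e-05). Klf3, a repressor of the KLF family, was at 80.4, 50.2, 54.7 and 48.3 FPKM in WT Treg, against 199 and 170.4 in WT Tconv (-1.67 ± 0.31, adjusted p = 0.0030). Slfn2, needed for the quiescence of mouse T cells, was at 293, 179, 202 and 194 FPKM in WT Treg, against 472 and 467 in WT Tconv (-1.14 ± 0.24, adjusted p = 0.0067). Klf2, Ccr7 and Foxo1, other genes of naive cells, were not called. For Ccr7, which holds naive cells in lymph nodes, WT Treg replicate 1 stood apart: it was at 170.1, 1168, 1064 and 1169 FPKM in WT Treg, against 813 and 888 in WT Tconv (-0.27 ± 0.74, pairs 0.39 and 0.40, adjusted p = 0.85). The 1 member that was higher was Bcl2, which guards against cell death and stood at 76.4, 73, 84.2 and 80.7 FPKM in WT Treg, against 15.5 and 12.3 FPKM in WT Tconv (2.42 ± 0.18, adjusted p = 2.5e-06).

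The 5 NF-kB subunit genes gave no call in either direction. Rela (chr19:5637490-5648130) was at 64.9, 99.1, 129.7 and 124 FPKM in WT Treg, against 109 and 111 FPKM in WT Tconv (-0.13 ± 0.23, adjusted p = 0.76). Rel (chr11:23641729-23670970) was at 27.5, 199.5, 271 and 252 FPKM in WT Treg, against 63.5 and 62.6 FPKM in WT Tconv (1.14 ± 0.77, adjusted p = 0.37). For Rel, replicates 2 to 4 of WT Treg lay above both Tconv libraries and replicate 1 below both, and the pairs gave 2.08 and 1.99. With the run as a block Rel was called higher (1.93 ± 0.14, adjusted p = 1.8e-06), and so was Nfkb1 (0.87 ± 0.20, adjusted p = 0.0045). Nfkb1, which encodes p50 and its precursor, was at 122, 168, 380.3 and 476 FPKM in WT Treg, against 199 and 254 in WT Tconv (0.13 ± 0.49, pairs 0.93 and 0.90, adjusted p = 0.89). Nfkb2 was at 54.5, 143, 182 and 238 FPKM in WT Treg, against 134 and 194 in WT Tconv (-0.25 ± 0.46, pairs 0.43 and 0.30, adjusted p = 0.77). Relb was at 39.1, 71.1, 98.8 and 116 FPKM in WT Treg, against 99.2 and 140.3 in WT Tconv. WT Treg replicate 1 was the lowest of the 4 for all 5 genes.

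Among 26 inhibitors and feedback genes of NF-kB, Malt1 and Cd83 were higher and none lower. With the run as a block 8 were higher and 6 lower, where 19.5% and 26.4% of all genes were. Malt1, the protease of the complex that links the T cell receptor to NF-kB, was at 40.0, 66.2, 53.6 and 41.2 FPKM in WT Treg, against 29.2 and 24.6 in WT Tconv (0.85 ± 0.22, adjusted p = 0.024). Nfkbiz, an atypical IkB protein, was at 46.7, 242, 234 and 175 FPKM in WT Treg, against 41.3 and 36.5 in WT Tconv, and just missed the threshold (1.89 ± 0.61, adjusted p = 0.058). Map3k14, the kinase of the alternative pathway, was at 21.8, 51.6, 48.7 and 51.1 FPKM in WT Treg, against 84.5 and 92.2 in WT Tconv (-1.09 ± 0.34, adjusted p = 0.051). Here all 4 Treg libraries lay below both Tconv libraries, and replicate 1 was far below the other 3. The block called both, Nfkbiz higher and Map3k14 lower.

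Genes induced early after T cell receptor signals had a median log2 difference of 0.78 over 24 genes without stimulation. Of these 5 were higher in WT Treg and none lower, and 23 were higher with the run as a block, where 19.5% of all genes were. With 1 WT Tconv library left out, whichever it was, none was higher, without WT Treg replicate 1 there were 10, and without any other WT Treg library 3. WT Treg replicate 1 was the lowest of the 4 for 20 of the 24 genes. Myc was at 63, 143, 267 and 270.1 FPKM in WT Treg, against 29.9 and 33.9 in WT Tconv (2.29 ± 0.48, pairs 3.12 and 2.96, adjusted p = 0.0065). Jun, an AP-1 subunit, was at 37.7, 143, 113 and 119.6 FPKM in WT Treg, against 15.1 and 13.5 in WT Tconv (2.61 ± 0.56, adjusted p = 0.0078). Zfp36 and Zfp36l1, which promote decay of cytokine mRNA, and Dusp1, a MAP kinase phosphatase, were higher too. The heat shock genes, whose sums are given above, had their lowest Treg value in replicate 1 for 9 of 10 members, and 10 of 10 were called higher with the block. The part of cell handling in these genes was not tested.

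Proximal signalling genes of the T cell receptor gave 1 higher and 2 lower of 25, shares near the 7.03% and 5.53% of all genes. Dusp4, a phosphatase of the ERK pathway, was at 27.9, 434, 398 and 414 FPKM in WT Treg, against 10.5 and 11.6 in WT Tconv. WT Treg replicate 1 lay far below the other 3 and above both Tconv libraries, and the SE was large (4.15 ± 1.01, pairs 5.12 and 5.04, adjusted p = 0.016). Cd247, the zeta chain of the receptor complex, was at 222, 203, 182 and 239 FPKM in WT Treg, against 480.5 and 571 FPKM in WT Tconv (-1.31 ± 0.16, adjusted p = 1.6e-04). Ubash3a, a negative regulator, was at 67.7, 59.1, 36.5 and 40.6 FPKM in WT Treg, against 87.2 and 98.7 in WT Tconv (-0.90 ± 0.28, adjusted p = 0.048). With the run as a block 13 of the 25 were lower and 3 higher, where 26.4% and 19.5% of all genes were. In the T cell identity list the block gave 8 of 11 lower, against 1 of 11, Cd247, without it. Cd4, chosen after its values were seen, was at 292, 249, 127 and 112 FPKM in WT Treg, against 290.5 and 286 FPKM in WT Tconv, with pairs of -1.19 and -1.34. WT Treg replicate 1 lay above both Tconv libraries there and the other 3 below both, replicates 3 and 4 farthest. Cd2, an adhesion receptor, was the 1 identity gene that was higher, at 511, 746, 945 and 838 FPKM in WT Treg, against 294 and 241 in WT Tconv. In the anergy list 5 of 17 genes were higher, among them Nrp1, Folr4, Lag3 and Ndfip2, and 2 lower (Dgka and Itch). Nrp1, Folr4 and Lag3 are on the Treg core list too. With 1 WT Treg library left out 2 to 6 were higher and 0 to 2 lower. The anergy counts also rest on both WT Tconv libraries. Of the lower genes Dgka, a kinase that removes diacylglycerol, was at 455, 292, 280.1 and 236 FPKM in WT Treg, against 612 and 680.1 in WT Tconv.

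Genes of the cell cycle were higher in 9 of 24 and lower in none, with a median log2 difference of 0.91. The pair medians of the list were 0.41 for Treg replicate 3 and 0.96 for Treg replicate 4. The highest of the 4 Treg values was that of replicate 1, with the highest B cell and myeloid sums, for 18 of the 24 genes, against 6239 of all 11533. Without it 7 genes were higher, without replicate 2 of WT Treg 3, without replicate 3 of WT Treg 12, without replicate 4 of WT Treg 4, and with 1 WT Tconv library left out, whichever it was, none. Mki67, the proliferation marker, was at 35.4, 22.9, 6.63 and 20.5 FPKM in WT Treg, against 2.67 and 5.97 in WT Tconv (1.94 ± 0.56, pairs 1.06 and 1.63, adjusted p = 0.035). Ccna2, Cdk1, Aurkb, Birc5, Rrm1, Tyms, Top2a and Rrm2 were the others higher. Top2a, which untangles DNA, was at 42.2, 35, 13.6 and 30.1 FPKM in WT Treg, against 5.89 and 9.11 in WT Tconv. Rrm2, a subunit of ribonucleotide reductase, was at 36.5, 28.1, 9.31 and 19.7 FPKM in WT Treg, against 4.33 and 5.63 in WT Tconv (1.89 ± 0.43, pairs 0.95 and 1.64, adjusted p = 0.011). WT Treg replicate 3 was the lowest of the 4 for 22 of the 24 genes and still above both Tconv libraries for these 3. Of the regulators of G1 phase 3 of 15 were higher and none lower, where 7.03% and 5.53% of all genes were. Cdk6 was at 13.9, 15.2, 17 and 28.1 FPKM in WT Treg, against 3.05 and 3.26 in WT Tconv. Ccnd2 was at 114, 94.6, 96.8 and 149.9 FPKM in WT Treg, against 40.9 and 35.3 in WT Tconv. The inhibitor Cdkn2c was at 14.9, 11.3, 6.59 and 8.89 FPKM in WT Treg, against 4.13 and 3.99 in WT Tconv.

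Survival genes of the BCL2 family gave 4 higher and 1 lower of 16, where 7.03% and 5.53% of all genes were. Beside Bcl2, the protective Bcl2l1 was at 27.5, 58.3, 72 and 152 FPKM in WT Treg, against 10.9 and 18.3 in WT Tconv (2.12 ± 0.59, pairs 2.62 and 2.99, adjusted p = 0.030), and Bcl2l2 was higher at low levels. Pmaip1, which promotes death, was at 7.62, 60.3, 43 and 35.1 FPKM in WT Treg, against 5.94 and 5.62 in WT Tconv, with replicate 1 near the Tconv values. Bcl2l11, which encodes the death-promoting BIM, was lower, at 20.6, 32.5, 35.4 and 37.5 FPKM in WT Treg, against 60.3 and 63.3 in WT Tconv (-0.98 ± 0.30, adjusted p = 0.046). Its call was lost without WT Treg replicate 1, 2 or 3, and it rests on both WT Tconv libraries.

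Of 16 glycolysis genes 3 were higher in WT Treg and none lower, where 7.03% and 5.53% of all genes were. Tpi1 was at 45.6, 39.5, 29.2 and 50.9 FPKM in WT Treg, against 11.7 and 13.9 in WT Tconv. Ldha was at 246, 242, 228 and 202 FPKM in WT Treg, against 171 and 124 in WT Tconv. Hk2 was at 1.43, 5.68, 4.07 and 6.5 FPKM in WT Treg, against 0.793 and 0.556 in WT Tconv. Of 15 tested genes of cholesterol synthesis and uptake 5 were higher and none lower. Both counts of higher genes were 0 with 1 WT Tconv library left out, whichever it was. Sqle, the squalene epoxidase, was at 12.1, 12.6, 16.4 and 22 FPKM in WT Treg, against 7.22 and 6.44 in WT Tconv (1.06 ± 0.25, adjusted p = 0.012). Idi1, an isomerase of the isoprenoid steps, was at 15.1, 28.5, 35.6 and 45.2 FPKM in WT Treg, against 10.7 and 8.7 in WT Tconv (1.49 ± 0.36, adjusted p = 0.016). Cyp51, which demethylates lanosterol, was also higher. Interferon response genes gave 4 higher and 1 lower of 23, beside the same 7.03% and 5.53% of all genes. Isg15, Ifi35, Oas1a and Gbp3 were the ones higher. Gbp3, a guanylate-binding protein, was at 39.8, 62.1, 52.3 and 66.4 FPKM in WT Treg, against 17 and 18 in WT Tconv (1.57 ± 0.25, adjusted p = 0.0011). Irgm1, an immunity-related GTPase, was at 68, 36.1, 40.6 and 28.6 FPKM in WT Treg, against 158 and 84.4 in WT Tconv (-1.47 ± 0.39, adjusted p = 0.025).

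Genes lower in WT Treg included several with next to no signal there. In the Tconv list, chosen with earlier results of these data known, 13 of 25 were lower and 2 higher (Cd226 and Slamf6), with a median log2 difference of -1.40. Fam101b (chr11:75832697-75841284), a regulator of actin filaments, was at 31.9, 7.87, 11.9 and 7.27 FPKM in WT Treg, against 321 and 286 FPKM in WT Tconv, the largest fall among the genes named here by rule (-4.51 ± 0.58, adjusted p = 1.9e-04). Bambi-ps1, annotated as a pseudogene of the TGF-beta decoy receptor Bambi, was at 17.4, 6.94, 6.4 and 6.83 FPKM in WT Treg, against 96.9 and 122 in WT Tconv, and its reads may be shared with a near-identical gene. St8sia1, which makes the ganglioside GD3, was at 14.1, 6.69, 6.92 and 3.64 FPKM in WT Treg, against 54.9 and 54.9 in WT Tconv. Fam78a, at 57.9, 12.6, 11.9 and 13.2 FPKM in WT Treg, against 131 and 138 in WT Tconv, had WT Treg replicate 1 far above the other 3 and still below Tconv. Gzmk (chr13:113962082-113971105), a granzyme of memory and cytotoxic T cells, was at 0.086, 0.381, 0.362 and 0.119 FPKM in WT Treg, against 17.6 and 8.13 FPKM in WT Tconv (-3.41 ± 0.65, adjusted p = 0.0037). Zbtb16, which encodes PLZF, the factor of NKT and other innate-like T cells, was at 0.0714, 0.0452, 0.043 and 0.158 FPKM in WT Treg, against 8.96 and 4.82 in WT Tconv (-2.82 ± 0.52, adjusted p = 0.0033). The NK and CD8 marker sums are given above. For these sets of genes, fewer cells of a type and less RNA per cell cannot be told apart in bulk libraries. Khdrbs3, Pdlim4, Atp8b4 and Hs3st3b1 were also at most 1.80 FPKM in every WT Treg library, against 4.83 to 24.3 in WT Tconv. Fanci, Tmie and Cyp2d22 were lower as well, at 0.926 to 4.79 FPKM in WT Treg, against 16.3 to 27.7 in WT Tconv.

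The same contrast after stimulation came from other libraries, 2 of each cell type. They belong to libraries 10 to 16 and 21 to 30, as do both resting WT Tconv libraries and resting WT Treg replicates 3 and 4. Libraries of one run deviated together on average, so the directions kept below are not fully separate support. There 419 genes were higher in WT Treg (3.63%) and 348 lower (3.02%). Of the 811 resting rises 683 kept their direction (84.2%, where 45.5% of all genes tested were higher), 309 were called the same way and 19 the opposite way. Of the 638 resting falls 542 kept their direction (85.0%, where 54.4% of all genes were lower), 96 were called the same way and 1 the opposite way. The median log2 difference was 0.93 for the resting rises and -0.36 for the resting falls after stimulation. Foxp3 was at 336 and 295 FPKM in stimulated WT Treg, against 0.709 and 0.596 in stimulated WT Tconv. Ikzf2 was at 126 and 149.6 in stimulated WT Treg, against 7.37 and 6.03 in stimulated WT Tconv, with differences of 7.58 ± 0.50 for Foxp3 and 4.17 ± 0.20 for Ikzf2.

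The difference between the states was itself called for 119 genes (1.03%). In 109 of these the difference of WT Treg minus WT Tconv was more positive at rest, and in 96 of the 109 WT Treg was above WT Tconv at rest and below it after stimulation. Prnp, the prion protein gene, was at 12.6, 12.2, 11.2 and 14.1 FPKM in resting WT Treg, against 2.81 and 2.75 in resting WT Tconv, and at 9.9 and 12.5 in stimulated WT Treg, against 31.4 and 25.6 in stimulated WT Tconv. The WT Treg level was much the same in both states and that of WT Tconv was not, and the difference between states was 3.11 ± 0.23 (adjusted p = 2.4e-05). Tbx21, which encodes T-bet, was at 4.32, 7.57, 4.68 and 3.96 FPKM in resting WT Treg, against 3.93 and 2.19 in resting WT Tconv, and at 8.93 and 9.93 in stimulated WT Treg, against 90.9 and 83.1 in stimulated WT Tconv (3.67 ± 0.45, adjusted p = 0.0034). Tbkbp1, which encodes an adaptor of the kinase TBK1, was under 1 FPKM in all 6 resting libraries and at 0.263 and 0.599 FPKM in stimulated WT Treg, against 21.6 and 22.1 in stimulated WT Tconv (3.80 ± 0.35, adjusted p = 1.8e-04). Lcp2, which encodes the adaptor SLP-76, was at 150.2, 144, 87.9 and 96.5 FPKM in resting WT Treg, against 70.7 and 77.2 in resting WT Tconv, and at 126 and 143 in stimulated WT Treg, against 547 and 474 in stimulated WT Tconv. For Lcp2 the difference was called after stimulation (-1.92 ± 0.25, adjusted p = 4.2e-04) and not at rest (0.65 ± 0.22, adjusted p = 0.068), and the states differed by 2.57 ± 0.33 (adjusted p = 0.0046). Prnp, Rrp1b, a nucleolar protein gene, and Timm8a1, of a mitochondrial import complex, were called higher in WT Treg at rest and lower after stimulation, and were among 19 such genes of the 109. Rrp1b was at 16.6, 13.1, 9.97 and 11.4 FPKM in resting WT Treg, against 4.24 and 3.96 in resting WT Tconv, and at 12.9 and 18.3 in stimulated WT Treg, against 31.8 and 40.7 in stimulated WT Tconv.

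Several genes of the lists above were among the 109. Tnf was at 28, 20.6, 51.8 and 48.3 FPKM in resting WT Treg, against 15.6 and 12.8 in resting WT Tconv, and at 62.2 and 62.8 in stimulated WT Treg, against 290.1 and 291 in stimulated WT Tconv (3.44 ± 0.65, adjusted p = 0.028). Egr1, an early transcription factor, was at 41.2, 59, 41.4 and 28.9 FPKM in resting WT Treg, against 17.8 and 15.8 in resting WT Tconv, and at 128 and 116 in stimulated WT Treg, against 714 and 574 in stimulated WT Tconv (3.63 ± 0.65, adjusted p = 0.020). Ccnd2 was at 103 and 162 FPKM in stimulated WT Treg, against 255 and 249.6 in stimulated WT Tconv, with the resting values given above (2.49 ± 0.35, adjusted p = 0.0055). Socs1 was at 264 and 289 FPKM in stimulated WT Treg, against 406 and 366 in stimulated WT Tconv. The states differed by 3.39 ± 0.66 for Socs1 (adjusted p = 0.031). In the other direction 10 genes were called, 9 of them lower in WT Treg at rest. Ranbp10, a Ran-binding protein gene, was at 16, 18.3, 21.4 and 20.7 FPKM in resting WT Treg, against 99.4 and 119 in resting WT Tconv, and at 18.4 and 16.7 in stimulated WT Treg, against 29 and 39.9 in stimulated WT Tconv (-1.54 ± 0.28, adjusted p = 0.020). Clcf1, which encodes a relative of IL-6, was lower in WT Treg at rest and higher after stimulation (0.69 ± 0.15, adjusted p = 0.011). Tec, a kinase of T cell receptor signalling, Nptx1, Prrc2b and Cox6b2 were the other named ones. These counts rest on single libraries: without replicate 2 of resting WT Tconv 7 positive and 1 negative difference were called, without replicate 1 of stimulated WT Treg 7 and 0, and from the libraries of the contrasted groups alone 38 and 0. With the run as a block there were 953 and 889.

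**Figure D5:**
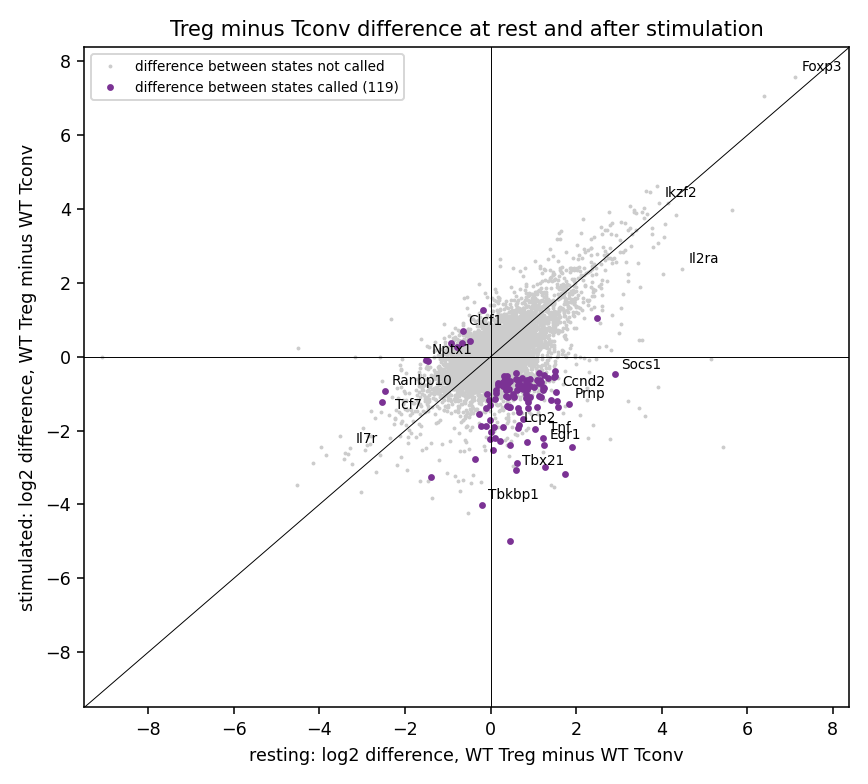
Log2 difference of WT Treg minus WT Tconv at rest (horizontal axis) and after stimulation (vertical axis) for the genes tested, with the line of equal differences. Purple points are the 119 genes for which the difference between the states was called. Foxp3 and Ikzf2 lie near the line, and most purple points lie below it, to the right of 0 on the horizontal axis and under 0 on the vertical axis, as Prnp, Lcp2 and Tnf do.

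The TAT-Cre controls gave 1 more library of each cell type and no test. Over all genes tested the median log2 difference of this pair was 0.21. Foxp3 was at 86.7 FPKM in the WT Treg control, against 2.55 FPKM in the WT Tconv control, a log2 difference of 4.63, below that in resting cells. Of the 811 resting rises 624 were higher there too (76.9%, where 67.8% of all genes tested were), with a median of 0.72. Of the 638 resting falls 179 were lower (28.1%, where 31.2% of all genes were), with a median of 0.26, near that of all genes. Tcf7 was at 153 FPKM in the WT Treg control, against 61.6 in the WT Tconv control, the opposite order to that at rest. Lef1 and Klf3 were also above in the WT Treg control (by 0.30 and 0.81), while Pde3b, Vipr1 and Hs3st3b1 were below (-1.12, -1.13 and -2.43). Stimulation, culture and treatment with the recombinase cannot be told apart in this pair.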

How the data were processed

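RNA-seq libraries were made from mouse T cells with RNeasy and TruSeq kits, per the labels' protocols. The deposited values are FPKM per gene and library as the authors computed them, with TopHat, Cufflinks and the build mm9 per the submitters' processing notes. Versions and settings for strand and multi-mapping reads are not given in the sources, so values of overlapping, antisense or near-identical genes are uncertain. In the deposited files an FPKM of 0 can be a failed estimate. Symbols that the Cufflinks status marks so in any library used were left out. Of 23699 entries per file, 23235 symbols resulted, 249 were left out for a Cufflinks status other than OK, and 22986 were kept. Files of 23 libraries were used, and the 2 libraries of cells with a TAT-Cre deletion were not analysed here. Entries of a symbol were summed. Depth was implied from the files' confidence bounds.

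log2(FPKM + 1) was fitted with limma 3.58.1 in R 4.3.3, with an intensity trend, over 21 libraries in 10 groups (11 residual degrees of freedom) and 11533 genes that reached 1 FPKM in at least 2 libraries. The 2 TAT-Cre controls were outside the fit. A fold change on this scale understates the change of low genes. The p-values were adjusted by Benjamini-Hochberg over all genes tested, and each adjusted p printed is limma's. The members, the 37 gene lists and the tests were chosen with earlier results of these data known. Genes were named by rule: Foxp3, Rela and Rel, the 16 largest called rises and 16 largest called falls with at least 5 FPKM in the higher group and no overlap, up to 6 members per list with the smallest p, all NF-kB subunits and Ikaros genes, and the 6 smallest p in each direction of the difference between rest and stimulation, Xist, and check lists by their summed level. Predicted genes, microRNA, small nucleolar and ribosomal RNA entries and receptor segments were not named by it. Some genes that the rule picks are not reported here. Other genes, which the text lists, were chosen after their values were seen. The fit was tested on simulated data with independent normal noise. These held neither run structure nor a library apart from its group, so the simulation cannot speak to either. Alternatives were another pseudocount, filter, scaling and set of libraries, a block by run or replicate number, no trend, and leaving out each library. Promoter windows came from RefSeq (GRCm38.p6).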

Additional observations from a re-analysis of the deposited data

Results flagged for a closer look

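For 12 of 137 named genes 1 WT Treg library stood far from the other 3, by the gap to the nearest library as a share of the range of the 4 log2(FPKM + 1) values. Chance gives about 5% of genes, and 10 of the 12 point to WT Treg replicate 1 and 2 to replicate 2. Replicate 1 was far below the others for Dusp4 (a share of 0.968), Map3k14 (0.932), Adora2a (0.894), Cish (0.877), Rel (0.864) and Tnfrsf1b (0.853). It was far above the others for Fam78a (0.937), Bambi-ps1 (0.922), Pdlim4 (0.915) and Bcl2l2 (0.839). Replicate 2 was far above the others for Il10ra (0.864) and far below for Itch (0.904), a ubiquitin ligase. Without replicate 1 the log2 difference of WT Treg minus WT Tconv kept its direction for all called named genes. The cause of the distance of replicate 1 was not tested.

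For 16 named genes the difference of WT Treg minus WT Tconv itself differed between rest and stimulation, at an adjusted limma p under 0.05. It was more positive at rest for Tbkbp1 (by 3.80), Tbx21 (3.67), Egr1 (3.63), Tnf (3.44), Socs1 (3.39), Prnp (3.11), Rrp1b (2.59), Lcp2 (2.57), Ccnd2 (2.49) and Timm8a1 (2.21). It was more negative at rest for Ranbp10 (-1.54), Cox6b2 (-1.43), Nptx1 (-1.42), Clcf1 (-1.35), Tec (-1.29) and Prrc2b (-1.06). The adjusted p ran from 2.4e-05 for Prnp to 0.036 for Tec.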

How the results depend on the processing

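All 120 called genes among the 138 named and tested kept their direction under every alternative that gave them a value, and 61 were called under all of those. For 3 of the 120 the filter at 5 FPKM gave none. Calls were most often lost without WT Tconv replicate 1 (53 of 120) or replicate 2 (51 of 120). At rest, 811 genes were higher in WT Treg and 638 lower. With the replicate block by run these counts were 2247 and 3040, with the block by title number 1923 and 1127, and with the run block on WT libraries of the paired runs 2777 and 4059. With WT Treg replicates 3 and 4 alone 1148 were lower. Leaving out 1 library gave 226 to 1014 higher and 136 to 1297 lower. After stimulation, the counts of 419 higher and 348 lower were 1939 and 2336 with the run block, 858 and 837 with the title block, 2684 and 3275 with the run block on paired WT libraries, and 168 to 185 and 88 to 139 with 1 library left out. The difference between states, called for 109 and 10 genes, was called for 953 and 889 with the run block, 829 and 394 with the title block, 1410 and 2024 with the run block on paired WT libraries, and 38 and 0 from the contrasted groups alone. Of negative differences there were 29 with a pseudocount of 5, 20 without the filter and 3 with WT Treg replicates 3 and 4 alone. With 1 library left out there were 7 to 146 positive and 0 to 18 negative differences. Libraries of one run deviated together on average, with a mean correlation of deviations of 0.432 over 51 pairs of libraries (lowest 0.0357). Pairs of libraries from other runs gave -0.209 over 105. Deviations were taken from each group's own mean, so in a group of 2 libraries they mirror each other. The negative value is thus in part fixed in advance and is no separate evidence, and the pairs of libraries are not independent. The labels do not call the runs batches and the titles number replicates per group, so the block was kept as an alternative. The main fit thus leaves this run structure in its spread. Uncalled genes changed sign. With the run block Ikzf3 was -0.38, Nfkb2 0.31 and Rela 0.14, and with the title block Nfkb1 was -0.64. With the run block on paired WT libraries, and with WT Treg replicates 3 and 4 alone, Ikzf3 was -0.44, Nfkb2 0.37 and Rela 0.20. With 1 library left out Rela ran from -0.25 to 0.080, Nfkb1 from -0.18 to 0.47, Nfkb2 from -0.52 to 0.19, Ikzf3 from -0.23 to 0.27 and Xist from -0.81 to 4.78. The cause was not tested. The depth of 18.0 to 50.6 M fragments limits genes near 1 FPKM most.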

Other observations

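Of the TNF-family ligands, Tnfsf8, the ligand of CD30, varied widely within WT Treg, lowest in replicate 1. It was at 44.4, 149, 371 and 324 FPKM in WT Treg, against 82.6 and 56.2 in WT Tconv, and was not called (1.29 ± 0.81, adjusted p = 0.33). In the paired runs the differences were 2.15 and 2.51. Cd40lg, which licenses dendritic and B cells, was at 26.9, 38.6, 71.9 and 33.3 FPKM in WT Treg, against 77.2 and 49 in WT Tconv, and the groups overlapped (-0.62 ± 0.45, adjusted p = 0.42). The glucose transporters Slc2a1 and Slc2a3 lay above both Tconv libraries in all 4 Treg libraries without a call. Slc2a1 was at 22.5, 44.2, 35.3 and 35 FPKM in WT Treg, against 18.9 and 19 in WT Tconv (0.78 ± 0.28, adjusted p = 0.085). Slc2a3 was at 35.8, 22.5, 12.6 and 12 FPKM in WT Treg, against 7.43 and 6.6 in WT Tconv (1.30 ± 0.45, adjusted p = 0.076), highest in replicate 1. That library had the highest B cell and myeloid sums, and it was the highest WT Treg library in 6239 of all 11533 genes. The part of those cells in the level of Slc2a3 was not tested. Arhgap29, a GTPase-activating protein, was among the falls, at 0.953, 0.908, 0.508 and 0.411 FPKM in WT Treg, against 5.49 and 4.45 in WT Tconv (-1.83 ± 0.18, adjusted p = 2.5e-05).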
